A study of Bos taurus with 21 samples.

Results

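The 10 genes described here encode proteins that bring fatty acids into the muscle fibre and break them down by beta-oxidation: *CD36*, *FABP3*, *CPT1B*, *CPT2*, *ACADM*, *ACADVL*, *ACADL*, *HADHA*, *HADHB* and *ACAA2*. They were taken by name as steps of this pathway. Every non-control probe whose RefSeq transcript belongs to one of them in the cattle annotation was taken, which gave 29 probes of the 43653 non-control probes on the array, and 10 of the 12538 genes that could be named. Of the 29 probes, 26 passed the filter on low values, at least 1 for each gene, and all were well above background on every array where they had a value. A gene is given below by its brightest probe, the one with the highest mean over all arrays, and its other probes by their range.

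In the pathway, the membrane protein *CD36* and the cytosolic carrier *FABP3* take up long-chain fatty acids and hold them in solution. *CPT1B*, the muscle form of the enzyme at the outer mitochondrial membrane that limits entry into the mitochondrion, and *CPT2* on the inner membrane pass the acyl chain through the carnitine shuttle. In the matrix, acyl-CoA dehydrogenases with preferences for very long, long and medium chains (*ACADVL*, *ACADL*, *ACADM*), the trifunctional protein (*HADHA* and *HADHB*) and the thiolase *ACAA2* shorten the chain cycle by cycle to acetyl-CoA. Foetal muscle is fuelled mostly by glucose and lactate, and a suckling calf takes in milk fat from birth on.

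The arrays measured total RNA from muscle of 21 foetuses at 110, 180, 210 and 260 days post conception (dpc), 1 single-colour array per foetus. The Blonde d'Aquitaine (BA), a heavily muscled French beef breed, had 3, 2, 3 and 2 foetuses at these stages, and its comparison breed, the Charolais (CH), had 2, 3, 3 and 3. All came from artificial insemination within the breed, and each breed had 2 sires. The labels name the muscle as *Longissimus thoracis* and the methods of the study as *m. Semitendinosus*, and the BA foetuses were not genotyped for the myostatin mutation that is common in the breed. BA had 3 males and 7 females and CH 5 males and 6 females, and the sexes were unevenly spread over the stages, with 2 males among the 3 BA foetuses and none in CH at 110 dpc.

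Values are log2 intensities scaled to the 75th percentile of their array, on which 0 is close to the median probe. They compare foetuses for 1 probe and do not compare genes. The 75th percentile lay between 525 and 1174 intensity units, and between 29017 and 34501 probes were well above background on an array. The arrays were scanned on 3 days, spread unevenly over breeds and stages. Those of the third day were of 110, 180 and 210 dpc and had 75th percentiles from 932 to 1174. The number of foetuses limits the precision. All 8 skeletal muscle markers were well above background on all 21 arrays, and their mean level per foetus lay between 7.79 and 8.30 at 110 dpc and between 10.50 and 10.81 at 260 dpc. In a tissue sample, a change in the share of a cell type and a change in its RNA per cell cannot be told apart.

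From 110 to 260 dpc, 8 of the 10 genes rose in the mean of the breeds and none fell. *CD36* rose 4.69-fold, *ACADVL* 4.16-fold, *HADHB* 2.90-fold, *FABP3* 2.66-fold and *ACADM* 2.21-fold, *HADHA* 1.64-fold, *ACADL* 1.44-fold and *ACAA2* 1.20-fold. *CPT1B*, at 1.99-fold with a noisy probe, and *CPT2*, at 1.11-fold, did not pass the test. This was the limma test with a Benjamini-Hochberg adjusted p under 0.05 over the 20132 probes tested. Developmental change was widespread, since 64.1% of these probes passed in this comparison and 33.3% passed as higher. The median change of the 10 genes was 1.07 on the log2 scale, beside 0.04 for all tested probes. Of the 29 probes, 23 rose and none fell, counting 1 probe of *ACADL* under the filter.

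**Figure D1:**
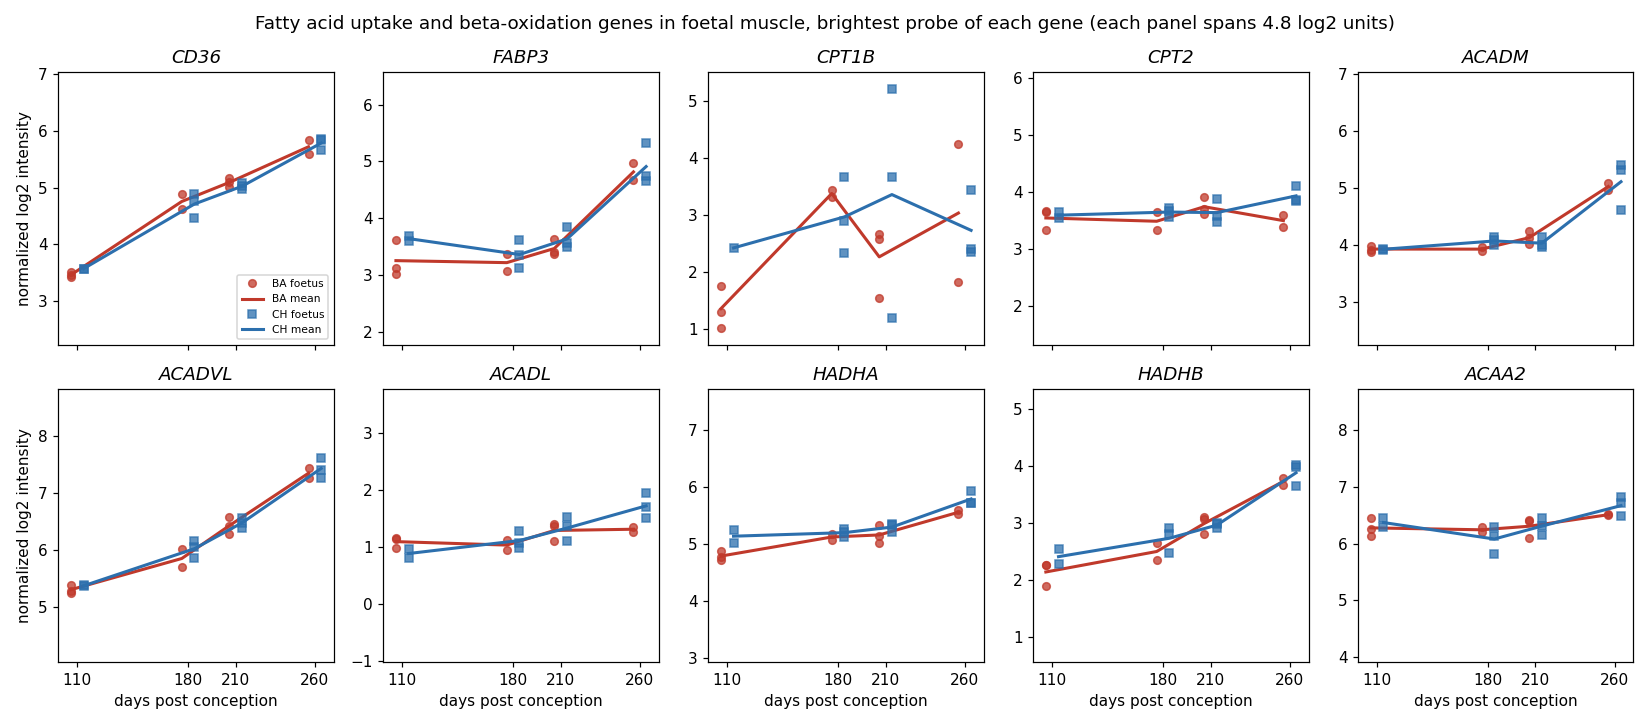
Normalized log2 intensity (y axis, every panel spanning the same number of log2 units) against days post conception (x axis) for the brightest probe of each of the 10 genes. Points are single foetuses, circles for BA and squares for CH, and lines join the breed means. *CD36* and *ACADVL* climb at every stage, *FABP3* and *ACADM* stay level until 210 dpc and then rise, *CPT2* stays within 3.33 to 4.10, and the *CPT1B* probe scatters widely.

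*CD36*, which carries fatty acids across the plasma membrane, rose at every step. In BA the level was 3.46, 3.51 and 3.42 at 110 dpc, 4.89 and 4.62 at 180 dpc, 5.16, 5.02 and 5.09 at 210 dpc and 5.84 and 5.59 at 260 dpc. In CH it was 3.57 and 3.58 at 110 dpc, 4.77, 4.89 and 4.47 at 180 dpc, 5.07, 4.97 and 5.03 at 210 dpc and 5.66, 5.84 and 5.85 at 260 dpc. Over both breeds, every foetus lay above all foetuses of the stage before it. The change was 1.21 (SE 0.09, limma adjusted p = 6.4e-08) from 110 to 180 dpc, 0.32 (SE 0.08, adjusted p = 0.023) from 180 to 210 dpc and 0.69 (SE 0.08, adjusted p = 6.5e-06) from 210 to 260 dpc. Thus 54.4% of its rise had taken place by 180 dpc. The second probe of the gene rose by 1.99 in all, with 44.8% of it by 180 dpc. The call from 180 to 210 dpc was lost without BA replicate 2 at 180 dpc (0.25), without BA replicate 1 at 210 dpc (0.31) and without CH replicate 3 at 180 dpc (0.26), and under 6 other alternatives (0.29 to 0.40). On values without scaling between arrays the step from 210 to 260 dpc was 0.28 (adjusted p = 0.26) and did not pass. There the median of all probes was −0.39, and *CD36* lay 0.67 above it.

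*FABP3*, the heart-type carrier that holds fatty acids in the cytosol, rose late. In BA the level was 3.02, 3.63 and 3.12 at 110 dpc, 3.07 and 3.38 at 180 dpc, 3.40, 3.63 and 3.37 at 210 dpc and 4.67 and 4.97 at 260 dpc. In CH it was 3.69 and 3.60 at 110 dpc, 3.61, 3.35 and 3.12 at 180 dpc, 3.85, 3.56 and 3.50 at 210 dpc and 4.65, 4.75 and 5.33 at 260 dpc. The earlier 3 stages overlapped, and all 5 foetuses at 260 dpc lay above the rest. From 210 to 260 dpc *FABP3* rose by 1.31 (SE 0.14, limma adjusted p = 2.3e-06), which was 92.7% of its whole change of 1.41 (SE 0.15). Its differences of −0.16 (SE 0.15, adjusted p = 0.50) from 110 to 180 dpc and 0.26 (SE 0.14, adjusted p = 0.28) from 180 to 210 dpc did not pass. In that last comparison the probes were not at one, since 1 of the 3 was called higher, with changes from 0.26 to 0.47. With sex as a covariate the brightest probe passed there as well, at 0.39 (limma adjusted p = 0.021). All 3 probes of the gene were called higher at 260 than at 110 dpc, with changes from 1.41 to 1.86.

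The brightest probe of *CPT1B*, the gate of the carnitine shuttle, did not follow a stage. Its level was 1.29, 1.01 and 1.76 in BA at 110 dpc, 3.44 and 3.32 at 180 dpc, 2.58, 2.67 and 1.54 at 210 dpc and 1.82 and 4.25 at 260 dpc, and the 3 CH foetuses at 210 dpc alone lay at 1.19, 3.66 and 5.22. The spot of CH replicate 2 at 110 dpc was marked as an outlier by the scanner software, so this probe rests on 20 arrays. Its change from 110 to 260 dpc was 1.00 (SE 0.69, limma adjusted p = 0.22). The next brightest probe was far less scattered, with 1.02, 1.56, 1.33, 1.29 and 1.45 at 110 dpc and 2.61, 2.94, 2.97, 2.86 and 3.10 at 260 dpc, which did not overlap. On that probe *CPT1B* rose by 0.93 (SE 0.13, adjusted p = 7.5e-05) from 110 to 180 dpc, by 0.49 (SE 0.13, adjusted p = 0.0045) from 210 to 260 dpc and by 1.54 (SE 0.13, adjusted p = 2.1e-08) in all, and 60.3% of the rise fell before 180 dpc. The third probe rose by 1.41 (SE 0.17). The probes of this gene thus disagree in their call, and choosing the less scattered one was a choice made after its values were seen.

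*CPT2*, the partner of *CPT1B* on the inner membrane, was nearly level. Its 21 values lay between 3.33 and 4.10, with group means from 3.49 in BA at 180 dpc to 3.93 in CH at 260 dpc. All neighbouring stages overlapped. The change from 110 to 260 dpc was 0.15 (SE 0.11, limma adjusted p = 0.24), with a 2nd probe, under the filter, at −0.03 (SE 0.27).

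**Figure D2:**
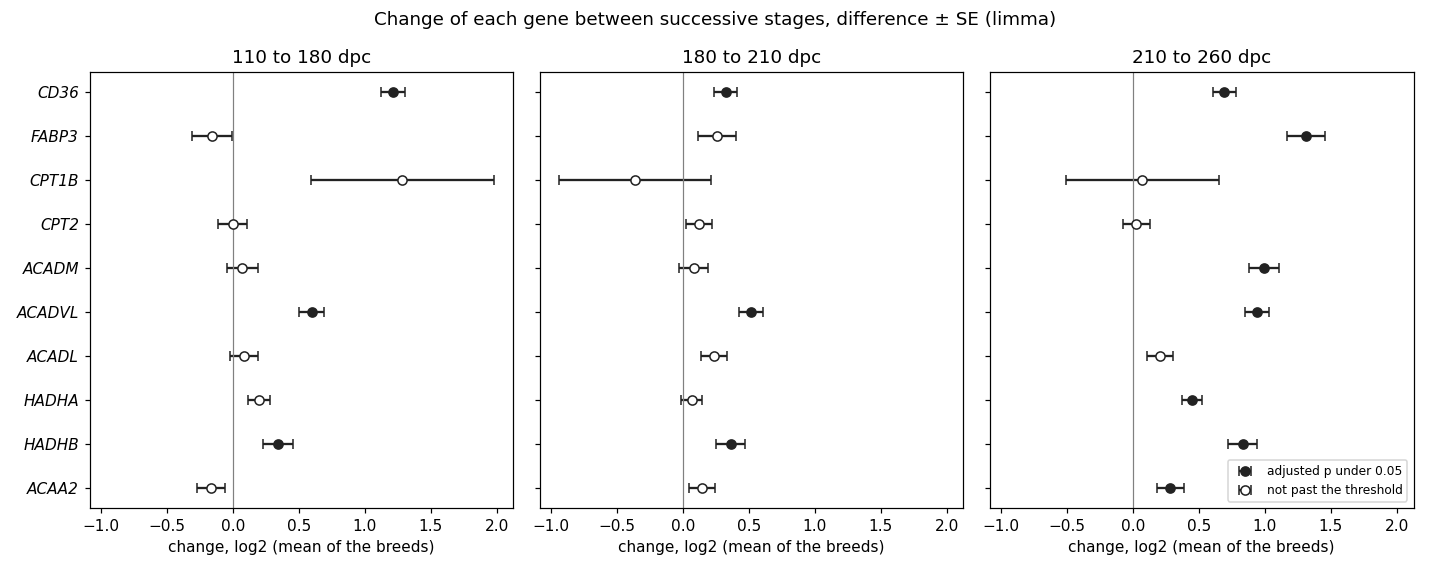
Change between successive stages on the log2 scale (x axis, mean of the breeds, point with SE) for the brightest probe of each gene (y axis). Filled points have a limma adjusted p under 0.05. From 110 to 180 dpc 3 genes are filled, from 180 to 210 dpc 3, and from 210 to 260 dpc 7, with *FABP3* at 1.31 and *ACADM* at 0.99 in the last step.

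Among the acyl-CoA dehydrogenases, *ACADVL*, which opens the cycle on very long chains at the inner membrane, rose at every step. In BA the level was 5.39, 5.27 and 5.24 at 110 dpc, 5.69 and 6.01 at 180 dpc, 6.57, 6.29 and 6.42 at 210 dpc and 7.26 and 7.44 at 260 dpc. In CH it was 5.38 and 5.36, then 6.05, 6.16 and 5.86, then 6.47, 6.39 and 6.57, and finally 7.27, 7.41 and 7.62. No foetus of a later stage overlapped the stage before it. The steps were 0.60 (SE 0.09, limma adjusted p = 0.00019), 0.52 (SE 0.09, adjusted p = 0.0018) and 0.94 (SE 0.09, adjusted p = 5.9e-07), and the 4 probes of the gene gave total changes from 2.04 to 2.12. The middle step did not pass in females alone (0.47, adjusted p = 0.071) or on the second scan day alone (0.44, adjusted p = 0.23). On values without scaling between arrays neither the first step (0.62, adjusted p = 0.054) nor the middle one (0.51, adjusted p = 0.29) passed.

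*ACADM*, the medium-chain enzyme, was level until 210 dpc. In BA it was 3.99, 3.91 and 3.88 at 110 dpc, 3.96 and 3.89 at 180 dpc, 4.12, 4.01 and 4.25 at 210 dpc and 5.09 and 4.97 at 260 dpc. In CH it was 3.93 and 3.91, then 4.14, 4.08 and 3.99, then 4.13, 3.99 and 3.97, and finally 4.62, 5.31 and 5.41. The CH foetus at 4.62 was the lowest of its stage and still lay above every earlier foetus. Of its rise of 1.14 (SE 0.12, limma adjusted p = 2e-07), 86.6% came between 210 and 260 dpc, a step of 0.99 (SE 0.11, adjusted p = 3e-06). The other probes rose by 0.50 and 1.33.

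*ACADL*, the long-chain enzyme, had a small change, with values from 0.81 to 1.95. In BA it was 1.16, 1.14 and 0.99 at 110 dpc and 1.36 and 1.27 at 260 dpc, and in CH 0.81 and 0.96 at 110 dpc and 1.71, 1.95 and 1.52 at 260 dpc. The mean change was 0.53 (SE 0.11, limma adjusted p = 0.00032), and no single step passed. On values without scaling between arrays the change was 0.14 (adjusted p = 0.60) and did not pass, 0.49 above the median of all probes, which was −0.36. Of its other probes, which were under the filter, 1 rose by 0.54 (SE 0.15, adjusted p = 0.0093 over all probes) and 1 was at 0.16 (SE 0.19).

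*HADHB*, the thiolase subunit of the trifunctional protein, had a larger measured change than its partner *HADHA*. *HADHB* was 2.25, 2.26 and 1.89 in BA and 2.54 and 2.28 in CH at 110 dpc, and 3.79 and 3.67 in BA and 3.65, 3.98 and 4.02 in CH at 260 dpc. *HADHA*, the hydratase and dehydrogenase subunit, was 4.72, 4.87 and 4.77 in BA and 5.02 and 5.25 in CH at 110 dpc, and 5.52 and 5.59 in BA and 5.72, 5.72 and 5.93 in CH at 260 dpc. Neither gene overlapped between those stages. *HADHB* rose by 1.53 (SE 0.12, limma adjusted p = 4.4e-09) and *HADHA* by 0.71 (SE 0.08, adjusted p = 7.8e-07), and their probes spanned 1.50 to 1.89 and 0.71 to 0.97 with no overlap. The difference between the subunits was not tested. On values without scaling between arrays *HADHA* was at 0.32 (adjusted p = 0.18) from 110 to 260 dpc and at 0.04 (adjusted p = 0.89) from 210 to 260 dpc, and neither passed. Relative to the median of all probes in those comparisons it was at 0.68 and 0.42. In both the step from 210 to 260 dpc was the largest, at 0.83 (SE 0.11) and 0.45 (SE 0.08). The steps of *HADHB* from 110 to 180 dpc, 0.34 (SE 0.12, adjusted p = 0.041), and from 180 to 210 dpc, 0.36 (SE 0.11, adjusted p = 0.048), were close to the threshold, and each was also lost under 8 alternatives. The first was lost without BA replicate 3 or CH replicate 2 at 110 dpc and without BA replicate 2 or CH replicate 2 or 3 at 180 dpc (0.27 to 0.32). The other was lost in 16 of the 21 fits that left out a foetus (0.29 to 0.44), all but those without BA replicate 1 or 3 at 110 dpc, BA replicate 2 at 210 dpc, CH replicate 2 at 180 dpc or CH replicate 1 at 260 dpc.

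*ACAA2*, the matrix thiolase, was nearly level. Its 21 values lay between 5.83 and 6.81, with 6.25, 6.45 and 6.13 in BA and 6.29 and 6.45 in CH at 110 dpc, and 6.52 and 6.50 in BA and 6.48, 6.81 and 6.71 in CH at 260 dpc. All foetuses at 260 dpc were above those at 110 dpc, with the nearest values 6.45 and 6.48. The change of 0.26 (SE 0.11, limma adjusted p = 0.039) passed narrowly and became −0.07 under quantile normalization and −0.13 on values without scaling between arrays, where it lay 0.23 above the median of all probes. Its other 2 probes, at 0.20 and 0.29, did not pass. Under 6 further alternatives, the second brightest probe among them, the change did not pass either (0.20 to 0.32). The call was lost without BA replicate 1 or 3 or CH replicate 1 at 110 dpc, and without either BA foetus or CH replicate 2 or 3 at 260 dpc (0.22 to 0.27). Its step of 0.28 (SE 0.10, adjusted p = 0.032) from 210 to 260 dpc was lost without the same foetuses of 260 dpc and without replicate 2 of either breed at 210 dpc (0.23 to 0.29). Among the other alternatives that step was lost under 7 (0.03 to 0.36) and reversed under 1 (−0.13).

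**Figure D3:**
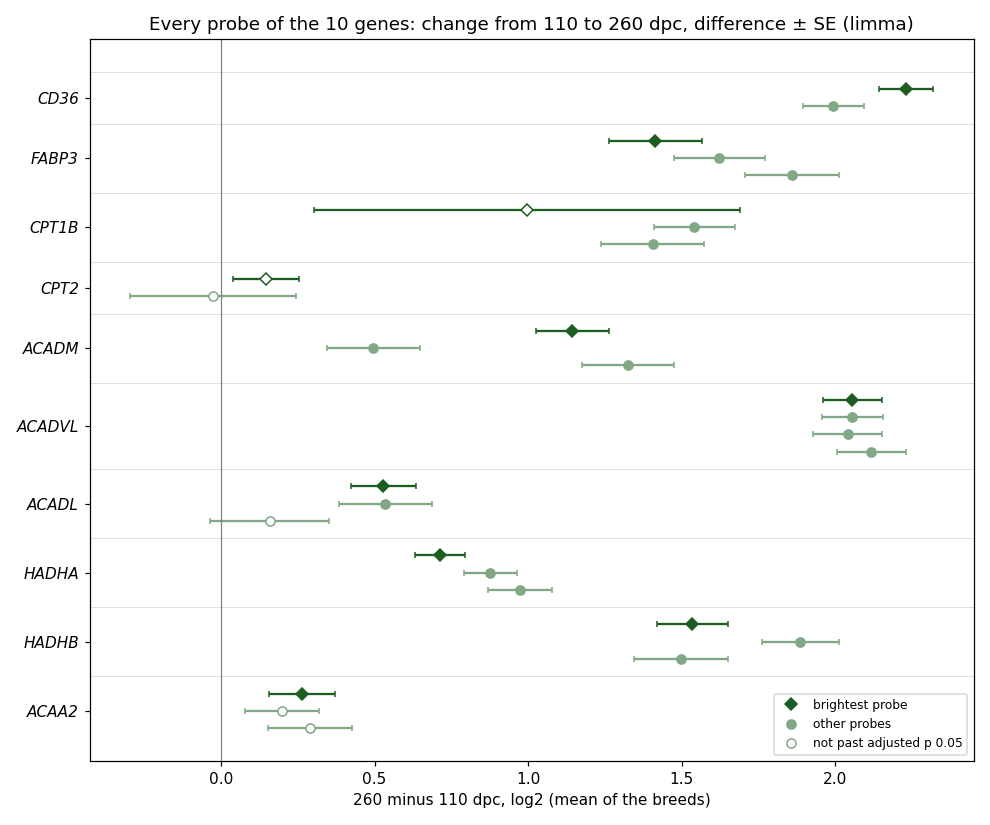
Change from 110 to 260 dpc on the log2 scale (x axis, mean of the breeds, point with SE) of all 29 probes, grouped by gene (y axis). Diamonds are the brightest probes, circles the others, and open symbols did not pass an adjusted p of 0.05. The 4 probes of *ACADVL* lie together between 2.04 and 2.12, and the brightest *CPT1B* probe has the widest error, 0.69.

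Set side by side, the steps differed in how many genes moved. They also differ in length in days, the middle step being the shortest, and the values are not per day. From 110 to 180 dpc *CD36*, *ACADVL* and *HADHB* rose, 3 of 10, where 24.0% of all tested probes passed and 12.5% passed as higher. From 180 to 210 dpc the 3 genes that rose were again *CD36*, *ACADVL* and *HADHB*, where 9.68% of probes passed and 5.35% as higher. From 210 to 260 dpc 7 of 10 rose, *FABP3*, *ACADM*, *ACADVL*, *HADHB*, *CD36*, *HADHA* and *ACAA2*, where 44.7% of probes passed and 24.8% as higher. The median change of the 10 genes was 0.14, 0.19 and 0.57 in these steps, beside −0.02, 0.01 and 0.02 for all probes.

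The change from 180 to 260 dpc was then tested against the change from 110 to 180 dpc in the same model. The later window is the longer one in days, so a constant rate of rise would give an excess above 0. The later change was larger in 5 of 10 genes, where 27.6% of all probes passed and 15.6% as larger. The excess was 1.73 (SE 0.26, limma adjusted p = 0.00022) for *FABP3*, 1.00 (SE 0.20, adjusted p = 0.002) for *ACADM*, 0.86 (SE 0.16, adjusted p = 0.0012) for *ACADVL*, 0.85 (SE 0.20, adjusted p = 0.0054) for *HADHB* and 0.59 (SE 0.19, adjusted p = 0.026) for *ACAA2*. For *CD36* it was −0.20 (SE 0.15, adjusted p = 0.37), with its other probe at 0.21. For the brightest *CPT1B* probe it was −1.58 (SE 1.11, adjusted p = 0.31) and for the less scattered one −0.32 (SE 0.23, adjusted p = 0.33). Which genes passed depended on the probe. On the second brightest probe *ACADM* was at 0.65 (adjusted p = 0.074) and did not pass. *HADHA* and *ACADL*, at 0.31 and 0.36 on their brightest probes, passed on the second, at 0.53 (adjusted p = 0.016) and 0.87 (adjusted p = 0.044). On values without scaling between arrays *FABP3* was the 1 gene still called, with *ACADM* at 0.57, *ACADVL* and *HADHB* at 0.42 and *ACAA2* at 0.15. The count fell to 3 when BA replicate 1 at 180 dpc was left out, with *HADHB* at 0.70 and *ACAA2* at 0.54 no longer past the threshold. The excess of *ACAA2* was also lost without BA replicate 2 (0.63) or CH replicate 1 (0.46) at 180 dpc and without CH replicate 2 at 110 dpc (0.55).

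Markers of other cell types moved over the same stages. Among all tested probes, 12.5% passed as higher from 110 to 180 dpc. In either direction 44.7% passed from 210 to 260 dpc, with 24.8% as higher. From 110 to 260 dpc 64.1% passed in either direction and 33.3% as higher. Of 7 endothelial markers, 6 rose from 110 to 180 dpc with a list median of 0.72, the step in which *CD36*, a gene also known from capillaries and fat cells, rose most, and their part in that rise was not tested. From 210 to 260 dpc 4 of the 7 fell, with a median of −0.38, while *CD36* rose by 0.69. The mean endothelial level per foetus was 2.77 to 3.03 at 110 dpc, 3.44 to 3.70 at 180 dpc, 3.16 to 3.66 at 210 dpc and 2.71 to 3.12 at 260 dpc. Of 6 adipocyte markers, 2 rose from 110 to 260 dpc and 1 fell, with a mean level per foetus between −1.75 and 0.90 and *LEP* well above background on 3 of 21 arrays. Of 6 fibroblast markers 5 fell, with a median of −0.57 and mean levels per foetus of 7.42 to 8.34 at 110 dpc against 6.75 to 7.44 at 260 dpc. Of 7 leukocyte markers 4 fell and 2 rose, with levels between 0.67 and 2.21. All 8 skeletal muscle markers rose, with a median of 2.69. The part of these changes in the rise of the fatty acid genes was not tested.

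Both breeds were then followed separately. From 110 to 260 dpc 6 of 10 genes rose in BA, where 52.4% of all probes passed and 27.6% as higher, and 7 rose in CH, where 52.2% passed and 27.5% as higher. The 6 genes of BA were *CD36* (2.25, SE 0.13), *ACADVL* (2.05, SE 0.13), *HADHB* (1.59, SE 0.16), *FABP3* (1.56, SE 0.21), *ACADM* (1.10, SE 0.17) and *HADHA* (0.77, SE 0.12), and the same genes rose in CH by 2.21, 2.06, 1.48, 1.27, 1.19 and 0.65. The additional gene in CH was *ACADL*, at 0.84 (SE 0.15, limma adjusted p = 0.00017), where BA had 0.22 (SE 0.15, adjusted p = 0.24). The test of that difference is given below with the breed comparison. The counts for each breed rest on the brightest probes. On the second brightest probe *CPT1B* passed in both breeds, at 1.47 (limma adjusted p = 5.0e-06) in BA and 1.61 (adjusted p = 1.9e-06) in CH. *ACADM* did not pass in CH on its second brightest probe, at 0.43 (adjusted p = 0.10).

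**Figure D4:**
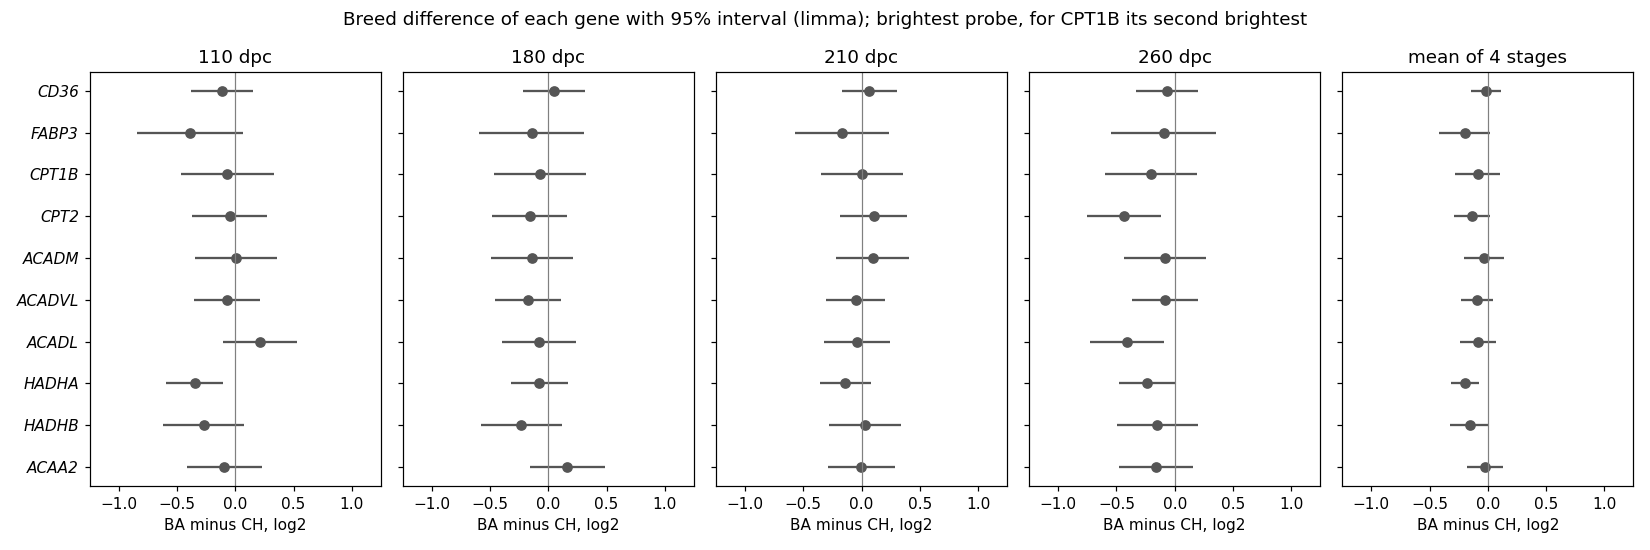
Breed difference, BA minus CH, on the log2 scale (x axis) with its 95% interval for each gene (y axis) at the 4 stages and averaged over them. The brightest probe is shown, except for *CPT1B*, where the 2nd brightest is shown because the interval of the brightest would run off the axis. The means over the 4 stages lie left of 0 for all genes, and the intervals of all but *HADHA* reach across it.

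No gene of the set passed the test between the breeds. Of the 10 genes, 0 passed at 110 dpc, where 0.273% of all probes passed, 0 at 180 dpc (0.00993% of probes), 0 at 210 dpc and 0 at 260 dpc (0% of probes at either), and 0 in the mean over the stages (0.358% of probes). At an unadjusted p under 0.05 there were 1, 0, 0 and 2 genes at the stages and 1 in the mean, in the limma fit, where 13.8%, 6.17%, 5.24%, 5.34% and 12.5% of all probes had such a p. *CD36* differed by −0.02 in the mean over the stages (95% interval −0.15 to 0.11), *FABP3* by −0.20 (−0.42 to 0.02), *ACADM* by −0.03 (−0.20 to 0.14) and *ACADVL* by −0.09 (−0.23 to 0.04). For these 4 genes the intervals leave out a mean difference over the stages as large as 0.5 in either direction. They do not bound the difference at a single stage, and *FABP3* at 110 dpc was at −0.39. The brightest *CPT1B* probe, at −0.36 (−1.32 to 0.59), leaves out little.

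The 10 mean differences were all below 0, from −0.36 to −0.02 with a median of −0.11, where 55.3% of all tested probes were below 0 and their median was −0.01. On the level of probes 27 of 29 were below 0, and the genes share the same foetuses, so these are not separate observations. The means of *ACAA2*, *ACADL*, *ACADM*, *CD36* and *CPT1B* changed sign in at least 1 alternative, and those of *ACADVL*, *CPT2*, *FABP3*, *HADHA* and *HADHB* stayed below 0 in all that were run.

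*HADHA* had the lowest p of the set in the mean comparison. BA lay below CH by 0.20 on the log2 scale, a difference of −0.20 (SE 0.06, 95% interval −0.32 to −0.08), with an unadjusted p of 0.0026 and an adjusted p of 0.14 over all probes in the limma fit. At 110 dpc its groups did not overlap, with 4.72, 4.87 and 4.77 in BA against 5.02 and 5.25 in CH, and neither did they at 260 dpc, with 5.52 and 5.59 against 5.72, 5.72 and 5.93. At 180 dpc (5.06 and 5.18 against 5.21, 5.12 and 5.27) and at 210 dpc they overlapped. On the 6 slides, 6 pairs of a BA and a CH foetus of the same stage shared a slide, and *HADHA* was lower in BA in 4 of them. The count was also 4 for *FABP3*, *CPT2*, *ACADM*, *ACADVL*, *ACADL* and *HADHB*, and it was 5 for *CD36*, 3 for *CPT1B* and 2 for *ACAA2*. The 3 probes of the gene gave mean differences from −0.20 to −0.11. The skeletal muscle marker list had a median breed difference of −0.31 at 110 dpc and 0.05 at 260 dpc, and its part in the *HADHA* values was not tested.

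At 260 dpc, the stage nearest to birth, 9 of 10 genes and 28 of 29 probes were lower in BA, where 52.4% of all probes were. *CPT2* was 3.39 and 3.61 in BA and 3.86, 3.84 and 4.10 in CH, a difference of −0.44 (SE 0.15, unadjusted p = 0.011, adjusted p = 0.72 in the limma fit). *ACADL* was 1.36 and 1.27 in BA and 1.71, 1.95 and 1.52 in CH, a difference of −0.41 (SE 0.15, unadjusted p = 0.014, adjusted p = 0.78). Neither gene overlapped between the breeds, and neither passed. Groups of BA wholly below CH were seen in 4 genes at 110 dpc, 1 at 180 dpc, 0 at 210 dpc and 3 at 260 dpc, where 17.5%, 13.6%, 4.91% and 10.1% of all tested probes had the same pattern. One of the 4 at 110 dpc was *CPT1B*, whose brightest probe has a single CH value there. *ACADL* at 110 dpc was wholly above (11.7% of probes). At 260 dpc both BA foetuses were female and had 1 sire, while 2 of the 3 CH foetuses were male. With sex as a covariate the differences of *CPT2* and *ACADL* at that stage were −0.54 (SE 0.15, adjusted p = 0.47) and −0.39 (SE 0.17, adjusted p = 0.77), and in females alone −0.61 (SE 0.20) and −0.20 (SE 0.18). Each sire served a single breed, so a part of the sires and a breed difference cannot be told apart here, at that stage or in the mean over the stages.

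The breed difference at 260 dpc was finally set against that at 110 dpc. No gene passed, as for all probes (0%), and 1 had an unadjusted p under 0.05, as did 7.09% of all probes. *ACADL* went from a difference of 0.21 (SE 0.15) at 110 dpc to −0.41 (SE 0.15) at 260 dpc, a change of −0.62 (SE 0.21, unadjusted p = 0.0094, adjusted p = 0.64 in the limma fit), and its 3 probes gave changes from −0.80 to −0.53. A breed-specific course of *ACADL* was thus not shown at this number of foetuses.

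**Figure D5:**
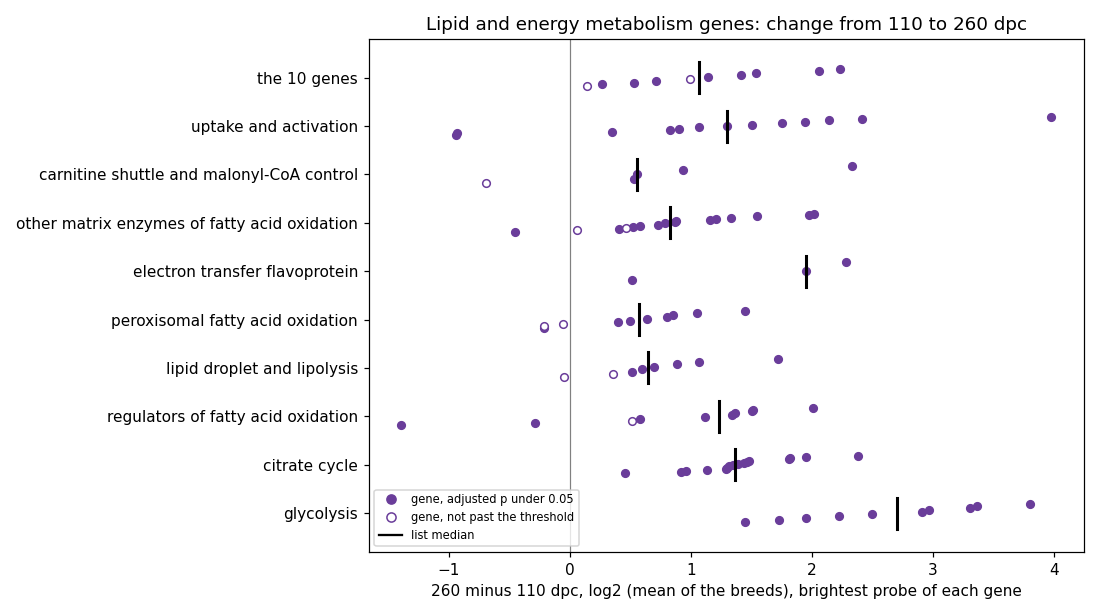
Change from 110 to 260 dpc on the log2 scale (x axis, mean of the breeds) of single genes in 10 lists of lipid and energy metabolism (y axis). Filled points passed an adjusted p of 0.05, and black bars are list medians. All 10 glycolysis genes lie above 1.4 with a median of 2.70, and the fatty acid lists have medians between 0.55 and 1.95.

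Other genes of fatty acid handling, listed by function, mostly rose as well between 110 and 260 dpc. In that comparison 64.1% of all tested probes passed and 33.3% passed as higher. In the list for uptake and activation 11 of 13 measured genes rose and 2 fell, with a median of 1.30. *LPL*, the lipase that frees fatty acids from circulating lipoproteins, rose most, by 3.97 (SE 0.18, limma adjusted p = 6.3e-12), and its rise began after 180 dpc, with 0.17 (SE 0.18) in the first step, 2.20 (SE 0.17) from 180 to 210 dpc and 1.61 (SE 0.17) from 210 to 260 dpc. *SLC27A4*, a fatty acid transport protein, fell most, by 0.94 on the log2 scale (adjusted p = 0.00083), and *ACSL3*, an acyl-CoA synthetase, fell by 0.93. *ACSL1*, the main acyl-CoA synthetase of muscle, rose by 2.14 (SE 0.09) and was named after its value was seen.

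Of 5 further genes of the carnitine shuttle and its control, 4 rose, with a median of 0.55. *CRAT*, which moves acetyl groups between carnitine and CoA, rose most, by 2.33 (SE 0.15, limma adjusted p = 6.2e-10). *ACACA*, an enzyme that makes malonyl-CoA, was lowest at −0.69 (SE 0.29, adjusted p = 0.062) and did not pass. *SLC25A20*, the carrier that links *CPT1B* to *CPT2*, rose by 0.94 (SE 0.09), of which 0.72 (SE 0.09) came after 210 dpc.

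Of 16 other matrix enzymes of fatty acid oxidation 13 rose and 1 fell, with a median of 0.83. *MCEE*, an epimerase for odd-chain products, rose most, by 2.02 (SE 0.10, limma adjusted p = 3.7e-11), and *ACAD9*, which is known for complex I assembly as well, fell by 0.45 (adjusted p = 0.00095). The 3 genes that pass electrons from the dehydrogenases to the respiratory chain all rose, with a median of 1.95 and *ETFDH* at 2.28 (SE 0.12, adjusted p = 4.3e-11). From 210 to 260 dpc 13 of the 16 matrix genes and all 3 electron transfer genes rose, where 24.8% of all tested probes passed as higher.

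In the peroxisomal list 7 of 10 genes rose and 1 fell, with a median of 0.57. *EHHADH*, the peroxisomal bifunctional enzyme, was the highest at 1.45 (SE 0.42, limma adjusted p = 0.0099), and *HSD17B4*, its counterpart for branched chains, fell by 0.21 (adjusted p = 0.031). In the list for lipid droplets and lipolysis 6 of 8 rose, with a median of 0.65, *PNPLA2*, the first lipase of stored triglyceride, at 1.72 (SE 0.16, adjusted p = 5.2e-08), and *PLIN3*, a droplet coat protein, at −0.05 (SE 0.16, adjusted p = 0.79).

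Of 10 regulators 7 rose and 2 fell, with a median of 1.23. *PPARA*, a nuclear receptor that activates fatty acid oxidation genes, rose most, by 2.01 (SE 0.34, limma adjusted p = 0.00014), although its probe lay under the filter. *PPARGC1A*, a coactivator of mitochondrial genes named after its value was seen, rose by 1.37 (SE 0.21). *RXRG*, a partner receptor, fell by 1.39 (adjusted p = 2.5e-05), and *PPARD* fell by 0.28. By comparison all 16 citrate cycle genes rose, with a median of 1.37, and all 10 glycolysis genes rose, with a median of 2.70, so the fatty acid genes were not alone in rising. In the mean breed comparison 0 of the 91 genes in these lists passed, and 12 (13.2%) had an unadjusted p under 0.05 in the limma fit, beside 12.5% of all probes.

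The genes most like the set in their course were found by correlating the 8 group means of each of 7922 named genes with the median centred course of the 10 members. *ESRRA*, a nuclear receptor of energy metabolism genes, came first with a Pearson r of 0.999, followed by *HSD17B8* (0.998), a mitochondrial fatty acid synthesis enzyme, *SDHD* (0.997), a subunit of succinate dehydrogenase, *ATP5F1A* (0.997), a subunit of ATP synthase, and *ANAPC11* (0.997), a subunit of a ubiquitin ligase. The points are 8 means of 2 or 3 foetuses that all share the course of the stages. Within the set, *ACADVL* and *HADHB* were the most alike pair (r = 0.99 over the 8 group means), followed by *FABP3* and *ACADM* (0.97), and the lowest value was that of *CPT1B*, by its scattered brightest probe, with *CPT2* (−0.06).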

How the data were processed

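Total RNA of 21 muscle samples was labelled with Cy3 and hybridised to single-colour Agilent 44K bovine arrays. The authors made the deposited intensity values with Agilent Feature Extraction 10.7, and their methods name normalization within and between arrays. The deposited values were taken here as without scaling between arrays, since their 75th percentile ran from 525 to 1174 intensity units. Their deposited value table, used in an alternative, is in log2 and holds no value for probes that were not well above background. Control spots and 258 outlier spot values were left out. From each log2 intensity the array's 75th percentile was subtracted, and 2.69 was then added throughout. Such scaling removes a change shared by most probes, so every change is relative to the array. Probes were named through RefSeq transcripts and the annotation of ARS-UCD2.0. Probe positions are not given, since the array's design used a different assembly.

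A model of 8 group means was fitted with limma 3.58.1 in R 4.3.3, giving 13 comparisons, 13 residual and 3.79 prior degrees of freedom. Figures were drawn with matplotlib. Tested probes, 20132, had a mean above 0 in at least 7 of 8 groups. A probe under the filter has its adjusted p from a fit over all 43653. The fit was tested on simulated data. The threshold was a Benjamini-Hochberg adjusted p of 0.05.

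The named genes are the 10 members, and in each fatty acid list the gene with the largest rise and the largest fall, and the 5 genes most alike in course. *ACSL1*, *ACSL3*, *SLC25A20*, *PPARGC1A*, *PPARD* and *LEP* lie outside this rule and were named after their values were seen. Of the listed genes, 14 had no matched probe. Members and lists were chosen with earlier results of these data known. Alternatives covered the background correction (normexp, offset 50), scaling, filter, sex, females alone, slide, scan day, replicate number and sire, the variance, the probe of a gene, and each array left out in turn. The arrays of the second scan day alone were added after seeing the data.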

Additional observations from a re-analysis of the deposited data

How the results depend on the processing

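Of 2067 values of single genes under the alternatives other than leaving out an array, 1990 kept their side of the threshold, 60 calls were lost, 14 were gained and 3 were reversed. A further 128 values that did not pass in either fit changed sign. None of the 2211 breed values, with arrays left out included, passed under any alternative. The authors' value table without scaling, in which the median of all probes from 110 to 260 dpc was −0.36, left 5 genes called from 110 to 260 dpc, 1 from 110 to 180 dpc, 0 from 180 to 210 dpc, 3 from 210 to 260 dpc and 1 in the test of the late against the early change. Median scaling moved that median to 0.14. The reversed values were those of *ACAA2* from 110 to 260 dpc, −0.073 under quantile normalization and −0.126 without scaling, and from 210 to 260 dpc, −0.129 without scaling. From 180 to 210 dpc 1 gene was called under median scaling, 1 without a filter, 0 in females alone and 0 with the second scan day alone, which also gave 3 for the late against the early change. The cause was not tested.

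With each array left out in turn, 42 calls were lost and 2 gained among 2723 values. The counts ran from 7 to 8 from 110 to 260 dpc, from 2 to 3 from 110 to 180 dpc, from 1 to 3 from 180 to 210 dpc, from 6 to 7 from 210 to 260 dpc and from 3 to 5 for the late against the early change. *HADHB* from 180 to 210 dpc was lost without any of 16 foetuses (0.287 to 0.436) and from 110 to 180 dpc without BA replicate 3 or CH replicate 2 at 110 dpc (0.281 and 0.277) and without BA replicate 2 or CH replicates 2 and 3 at 180 dpc (0.268, 0.295 and 0.323). *ACAA2* from 110 to 260 dpc was lost without any of 7 foetuses (0.223 to 0.271), from 210 to 260 dpc without any of 6 (0.232 to 0.288) and in the late against the early change without any of 4 (0.460 to 0.634). *CPT1B* in BA passed without BA replicate 1 at 260 dpc (2.89) or CH replicate 1 at 210 dpc (1.68).

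No tie was seen between foetuses of different groups with the same replicate number, which does not exclude one. Deviations from the group means correlated at a median of 0.009 (−0.259 to 0.499) over 66 same-numbered pairs and −0.009 over the 126 others. With slide as a block the calls lost were *ACAA2* from 110 to 260 dpc (0.32), from 210 to 260 dpc (0.26) and in the late against the early change (0.63) and *CD36* from 180 to 210 dpc (0.38), and *CPT1B* passed in the late against the early change (−3.28). With sex as a covariate *HADHB* was lost from 110 to 180 dpc (0.34) and from 180 to 210 dpc (0.36), and *CPT1B* in BA (2.25), *CPT2* in CH (0.44) and *FABP3* from 180 to 210 dpc (0.39) passed. A replicate block lost *HADHB* from 110 to 180 dpc (0.342, limma adjusted p = 0.053) and from 180 to 210 dpc (0.356, adjusted p = 0.070) and changed no other call. The trended variance could not be fitted for the brightest *CPT1B* probe, which lacks a value. All 29 probes were well above background where they had a value, and 3 were under the filter on low values.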
